A study of Saccharomyces cerevisiae with 24 samples.

Results

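Ribonucleotide reductase makes deoxyribonucleotides from ribonucleotides and so sets the supply of DNA precursors. Its small subunit carries an iron centre and a tyrosyl radical, and forming that radical uses molecular oxygen, so the enzyme is one of those tied to both iron and oxygen. In yeast, *RNR1* and *RNR3* encode forms of the large, catalytic subunit, *RNR2* encodes the small subunit that bears the radical, and *RNR4* encodes its partner, which lacks the radical. The protein Sml1 inhibits the enzyme, the checkpoint kinase Dun1 removes this inhibition, and Rfx1 (also called Crt1) represses the damage-inducible *RNR* genes in unstressed cells.

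These 7 genes were taken for their known roles, with 1 probe set a gene, which would be chosen by its mean log2 intensity, the highest, where an array holds several. Each had exactly 1 probe set on both kinds of array, so the intensities decided nothing in this choice. They are *RNR1* (YER070W), *RNR2* (YJL026W), *RNR3* (YIL066C), *RNR4* (YGR180C), *SML1* (YML058W), *DUN1* (YDL101C) and *RFX1* (YLR176C), 7 of 5449 genes on the L51 arrays and 7 of 5656 on the MHY100 arrays. *RNR1* and *RNR3* are close paralogs, so their probe signals may not be fully separate.

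Affymetrix arrays measured mRNA under 8 conditions, with 3 arrays each. Strain L51 is a *MATa* strain whose chromosomal *HAP1* is disrupted by *LEU2*, and all 18 of its arrays also share *trp1::HisG* and a *UAS1/CYC1-lacZ* reporter. With MHY100, the other *MATa* strain, it shares *ade1-100* and *his4-519* as well as the *ura3-52* and *leu2-3, 112* alleles. *HAP1* cells carry an ARS-CEN plasmid that expresses the heme-responsive activator Hap1, so that the gene is read from a plasmid and not from its own locus. *Δhap1* cells carry the empty vector. *HAP1* cells were sampled in air, after 1.5 h and 6 h without oxygen and after 6 h in air with 400 µM cobalt, and *Δhap1* cells in air and after 6 h without oxygen. Strain MHY100 cannot make the heme precursor 5-aminolevulinic acid (*hem1-Δ100*) and was grown with 2.5 µg/ml of it, which gave heme-deficient cells, or with 250 µg/ml, which gave heme-sufficient cells. Values below are log2 intensities in the order of replicates 1, 2 and 3, differences are log2 fold changes with their standard error (SE), and a gene is called where its adjusted p lies under 0.05. The MHY100 arrays are of another type and were normalized on their own, so no level is set against an L51 level. The number of arrays limits the precision, and the p-values measure the spread between cultures, which the methods describe as grown independently. For L51 this is the spread left after the mean differences between replicate numbers were removed.

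Before the results, the labels were checked. *HAP1* itself lay below the 95th percentile of the *S. pombe* probe sets, used here as background, on all 6 *Δhap1* arrays and above it on all 12 others of L51. These 12 include the cobalt arrays, whose title gives the *HAP1* plasmid and whose description gives the empty vector. *HEM1* was at 7.74 ± 0.23 (SD, n = 3) in heme-sufficient and 8.11 ± 0.46 in heme-deficient cells, which checks nothing, since the place of its probes against the deletion is not given in the sources used here. The *MATa* pheromone receptor gene *STE2* was above background on all 18 L51 arrays, while *MF(ALPHA)1* and *MF(ALPHA)2*, the pheromone genes of the other mating type, were above it on 1 and 0 of them. The other 2 of the 4 *MATalpha* markers were above it more often, *STE3* on 15 and *SAG1* on 18 of 18 arrays. Some arrays stood apart. In replicate 3 of *HAP1* cells at 1.5 h the anaerobic gene *ANB1* was at 9.02, against 14.14 and 13.41 in the other replicates, and in replicate 3 with cobalt it was at 12.22 against 9.64 and 9.49. Replicate 3 of *HAP1* cells at 6 h was doubted for *HUG1*, given below, so a fit without these 3 arrays is no independent support for that gene or for genes that move with it. The paper's text also mentions another yeast strain for 1 of the 3 replicates, without naming it. The L51 arrays of 1 number were hybridized together on the same day, split over 2 rounds, and none of the 6 h arrays without oxygen was in the same round as an array of untreated cells from air. The cobalt arrays of replicates 2 and 3 did share a round with the 6 h arrays. In the heme strain replicates 1 and 2 shared a round across the groups, and the round of heme-deficient replicate 3 is not known.

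**Figure D1:**
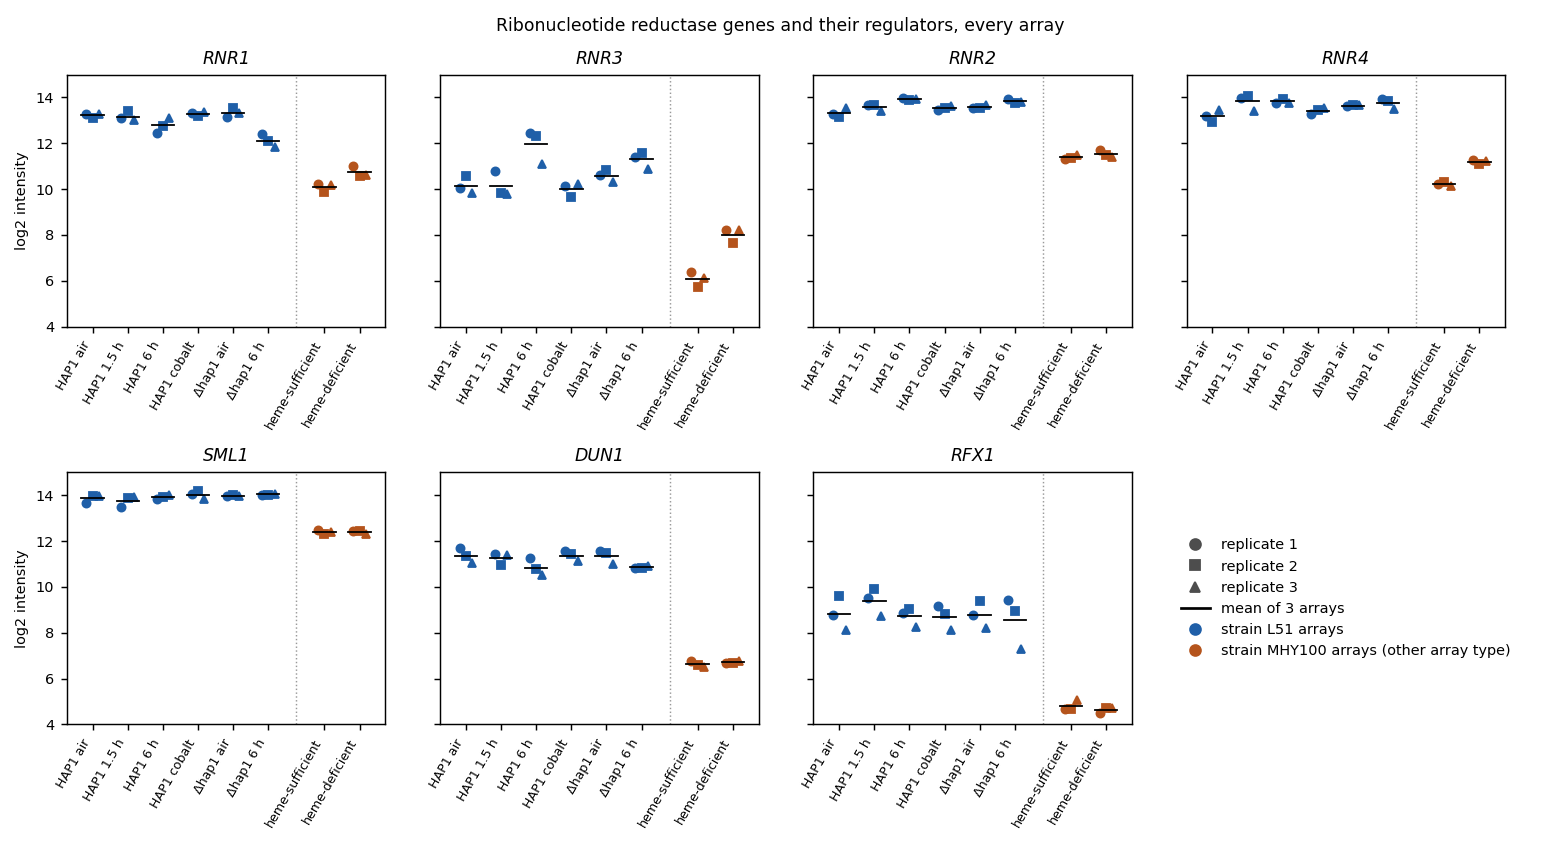
Log2 intensity of each gene (vertical axis) on every array, by condition (horizontal axis). Symbols give the replicate, bars the mean of 3 arrays, and the dotted line parts the L51 arrays from the MHY100 arrays, which are of another type. *RNR3* is highest in *HAP1* cells at 6 h (11.09 to 12.44), *RNR1* is lowest among the L51 arrays in *Δhap1* cells at 6 h (11.82 to 12.42), and *SML1* stays between 13.49 and 14.17 on all L51 arrays.

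Of the 7 genes, *RNR3* was the one called after 6 h without oxygen in *HAP1* cells. Its product, the alternative large subunit, is known for its strong induction by DNA damage and by blocked replication. In *HAP1* cells in air its log2 intensity was 10.04, 10.58 and 9.81, and after 6 h without oxygen it was 12.44, 12.32 and 11.09. The groups did not overlap, and the array of replicate 3 was the lowest of the 6 h arrays. The difference was 1.81 (SE 0.32, 95% confidence interval 1.12 to 2.49), a 3.5-fold rise, with an adjusted p of 0.022. By size of rise *RNR3* took place 54 of 5449 genes. At 1.5 h its values were 10.79, 9.83 and 9.79, which lie around those in air (difference -0.01, SE 0.32, adjusted p = 0.99). Set against 1.5 h, the 6 h value was higher by 1.81 (SE 0.32, adjusted p = 0.018), a call lost without replicate 1 (adjusted p = 0.47) or replicate 2 (adjusted p = 0.092).

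This call rested on the design. Same-numbered arrays differed by 2.40, 1.74 and 1.28, so all 3 pairs moved up, but without replicate 1 the adjusted p was 0.87, without replicate 2 it was 0.11, and without the replicate block it was 0.065, while the difference itself ran from 1.51 to 2.24 over 14 alternatives. Without replicate 3 of the 1.5 h, 6 h and cobalt arrays it was 2.07 (adjusted p = 0.0024). That fit is no independent support, since *RNR3* too was lowest in replicate 3 among the 6 h arrays. With the hybridization round in place of the replicate number the difference was 2.14 (adjusted p = 0.17). For replicate 2, whose 6 h and 1.5 h arrays shared a round, the 6 h array was higher than the 1.5 h array by 2.49.

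*Δhap1* cells gave *RNR3* values of 10.60, 10.83 and 10.32 in air and 11.42, 11.59 and 10.89 after 6 h without oxygen. All 3 anaerobic arrays lay above all 3 aerobic ones, yet the difference of 0.72 (SE 0.32, 95% confidence interval 0.03 to 1.40) had an adjusted p of 0.15 and was not called. Whether the 6 h change differed between *Δhap1* and *HAP1* cells was tested within the same fit, and the change was smaller in *Δhap1* cells by 1.09 (interaction -1.09, SE 0.45, adjusted p = 0.93). No gene on the arrays passed that interaction test (0 of 5449, 0%, limma), with 95 genes and 2 of the 7 at an unadjusted p under 0.05. The *RNR3* means ran from 11.95 in *HAP1* cells at 6 h, through 11.30 in *Δhap1* cells at 6 h and 10.58 in *Δhap1* cells in air, to 10.14 in *HAP1* cells in air, 10.14 at 1.5 h and 10.00 with cobalt, and no neighbours in this order differed at the threshold where the fit compared them.

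In the heme strain *RNR3* rose again. Its log2 intensity was 6.40, 5.73 and 6.10 in heme-sufficient cells and 8.20, 7.64 and 8.21 in heme-deficient cells, so that the lowest heme-deficient array, at 7.64, was well above the highest heme-sufficient one, at 6.40. The difference was 1.94 (SE 0.23, 95% confidence interval 1.40 to 2.48), a 3.84-fold rise with an adjusted p of 0.0076, and by size of rise it took place 12 of 5656 genes. Leaving out 1 array at a time kept the difference between 1.77 and 2.13, and the call was lost only without heme-sufficient replicate 3 (1.95, adjusted p = 0.058). Among the heme-sufficient arrays the gene was dim, and replicate 2 fell below the 25th percentile of genes on its array. The probe set on this array type is of a kind that can match several transcripts, although its annotation names *RNR3* alone.

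*RNR1* fell without oxygen in *Δhap1* cells. It encodes the main large subunit, and its transcription peaks at the entry into S phase. In *Δhap1* cells it was at 13.14, 13.53 and 13.30 in air and at 12.42, 12.09 and 11.82 after 6 h without oxygen, so that the groups were well apart. The difference was -1.22 (SE 0.22, 95% confidence interval -1.69 to -0.74), a 2.33-fold fall with an adjusted p of 0.01. *HAP1* cells had values of 13.26, 13.11 and 13.27 in air and of 12.45, 12.77 and 13.11 at 6 h. There the highest 6 h array was level with the lowest aerobic one at 13.11, and the difference of -0.44 (SE 0.22) was not called (adjusted p = 0.34). The change in *Δhap1* cells was lower than that in *HAP1* cells by 0.78 (interaction -0.78, SE 0.31, adjusted p = 0.93), and at 6 h the *Δhap1* arrays lay below the *HAP1* arrays of the same round by 0.03, 0.68 and 1.29 (fitted difference -0.67, adjusted p = 1).

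The fall of *RNR1* in *Δhap1* cells lost its call without replicate 1 (-1.46, adjusted p = 0.19), without replicate 3 (-1.09, adjusted p = 0.078) and with the hybridization round as the block (-1.33, adjusted p = 0.094). The median gene of these arrays changed by -0.30 in this comparison, and when each array was centred on its median gene the *RNR1* difference was -0.90 (adjusted p = 0.04). In the remaining conditions no change of *RNR1* was called. At 1.5 h it was 13.10, 13.39 and 13.01 and with cobalt 13.34, 13.17 and 13.35, within 0.27 of the same-numbered aerobic arrays. In the heme strain it was 10.23, 9.87 and 10.20 with heme and 11.03, 10.58 and 10.63 without enough of it, a difference of 0.65 (SE 0.19, adjusted p = 0.17) with no overlap between the groups.

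The change of *RNR3* was also set against that of *RNR1* within each array. The *RNR3* signal lay below that of *RNR1* in the mean of every condition, so a rise of *RNR3* minus *RNR1* narrows the gap. This value rose by 2.24 in *HAP1* cells from air to 6 h (means -3.07 and -0.83). The rise was 1.94 in *Δhap1* cells (-2.74 and -0.81) and 1.29 from heme-sufficient to heme-deficient cells (-4.02 and -2.73). Each of these has an exact two-sided permutation p of 0.1, the smallest that 3 against 3 arrays allow, and an adjusted p of 0.23 over 16 such values. After 1.5 h (0.04) and with cobalt (-0.22) the shift was within the spread of the arrays (exact permutation p = 1 and 0.7, adjusted p = 1 and 0.93).

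**Figure D2:**
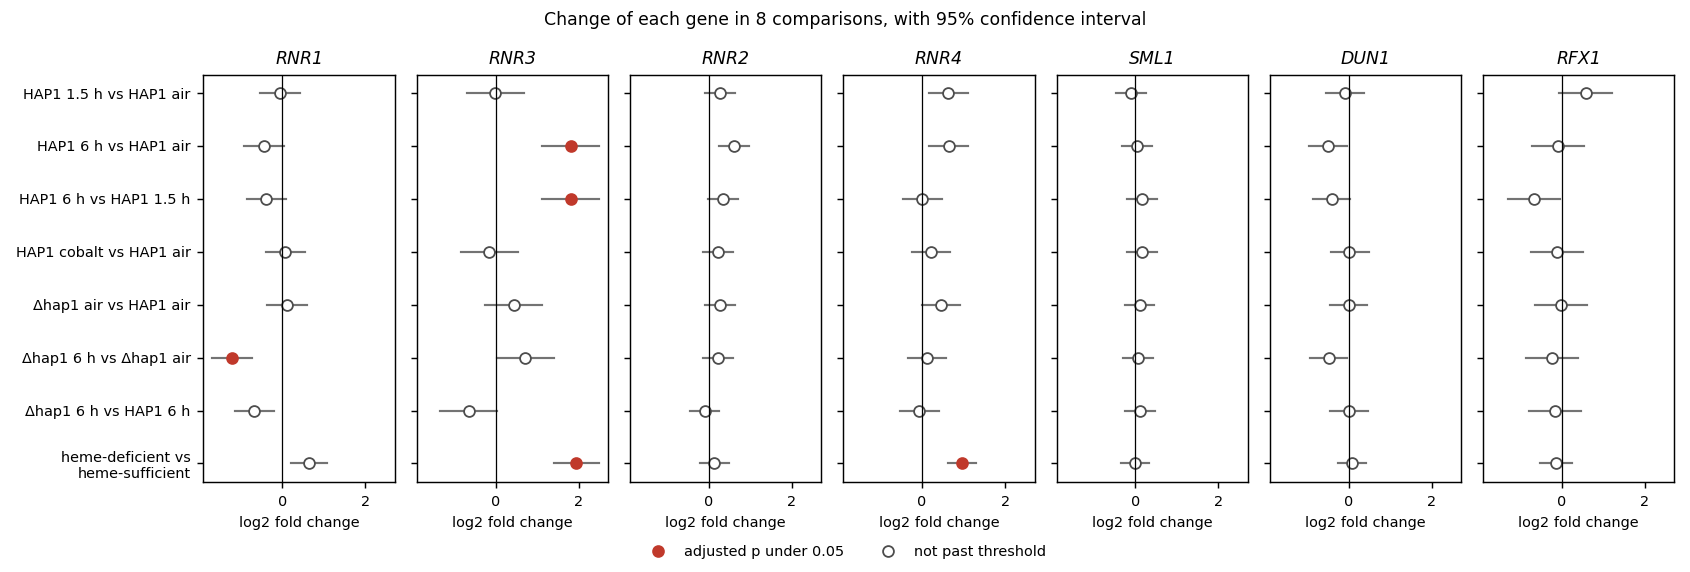
Log2 fold change (horizontal axis) of each gene in the 8 comparisons (vertical axis), with 95% confidence intervals as lines. Filled points passed an adjusted p of 0.05: *RNR3* in *HAP1* cells at 6 h against air (1.81) and against 1.5 h (1.81), *RNR1* in *Δhap1* cells at 6 h (-1.22), and *RNR3* (1.94) and *RNR4* (0.97) on heme deficiency.

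Among the small subunit genes, *RNR2* stood at 13.29, 13.14 and 13.54 in *HAP1* cells in air and at 13.96, 13.91 and 13.93 after 6 h without oxygen, 3 closely spaced values. The groups did not overlap, and the difference of 0.61 (SE 0.17, 95% confidence interval 0.25 to 0.97) had an adjusted p of 0.08. At 1.5 h it was 13.68, 13.67 and 13.43, between the values in air and at 6 h, with a difference from air of 0.27 (SE 0.17, adjusted p = 0.43). In *Δhap1* cells the values were 13.55, 13.56 and 13.69 in air and 13.94, 13.76 and 13.78 at 6 h (difference 0.23, SE 0.17, adjusted p = 0.36). Heme-sufficient cells gave 11.30, 11.37 and 11.50 and heme-deficient cells 11.69, 11.48 and 11.40, with overlapping groups (difference 0.13, SE 0.15, adjusted p = 0.63). Since *RNR2* lies 1.00 to 1.79 below the brightest gene of each L51 array, its changes were read near the top of the scale.

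*RNR4* was called on heme deficiency. Its values were 10.23, 10.32 and 10.15 with heme and 11.29, 11.08 and 11.24 without, well apart, and the difference was 0.97 (SE 0.15, 95% confidence interval 0.63 to 1.31), a 1.96-fold rise with an adjusted p of 0.018. Leaving out an array kept the difference between 0.93 and 1.03, but the adjusted p was 0.092, 0.088 and 0.14 without heme-sufficient replicate 1, 2 or 3 and 0.055 without heme-deficient replicate 3. Within an array *RNR4* lay below *RNR2*, by a mean of -1.16 in heme-sufficient and -0.33 in heme-deficient cells. The gap was thus narrower by 0.83 in heme-deficient cells (exact permutation p = 0.1, the smallest possible, adjusted p = 0.23). *RNR4* minus *RNR2* also rose at 1.5 h against air in *HAP1* cells (0.36) and in *Δhap1* against *HAP1* cells in air (0.18). Both had the same exact permutation p of 0.1 and adjusted p of 0.23.

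Without oxygen *RNR4* passed no threshold. *HAP1* cells gave 13.17, 12.93 and 13.47 in air, 13.97, 14.07 and 13.43 at 1.5 h and 13.75, 13.95 and 13.77 at 6 h. All 6 h arrays lay above all aerobic ones (difference 0.64, SE 0.22, adjusted p = 0.15). At 1.5 h replicates 1 and 2 had the highest *RNR4* levels of all 18 arrays, while replicate 3, in which *ANB1* was not high, was below its own aerobic array by 0.04. The difference at 1.5 h was 0.63 (SE 0.22, adjusted p = 0.26) with all arrays, and 0.97 (adjusted p = 0.04) without replicate 3 of each condition. With only the 3 doubted arrays left out it was 0.84 (adjusted p = 0.048). The 1.5 h array of replicate 3, left out in both fits, was also the lowest for *RNR4* at 1.5 h. Neither fit is thus independent support for a rise. *Δhap1* cells had 13.62, 13.66 and 13.65 in air, above every aerobic *HAP1* array (difference 0.46, SE 0.22, adjusted p = 1), and 13.94, 13.83 and 13.51 at 6 h (difference 0.11, SE 0.22, adjusted p = 0.75).

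**Figure D3:**
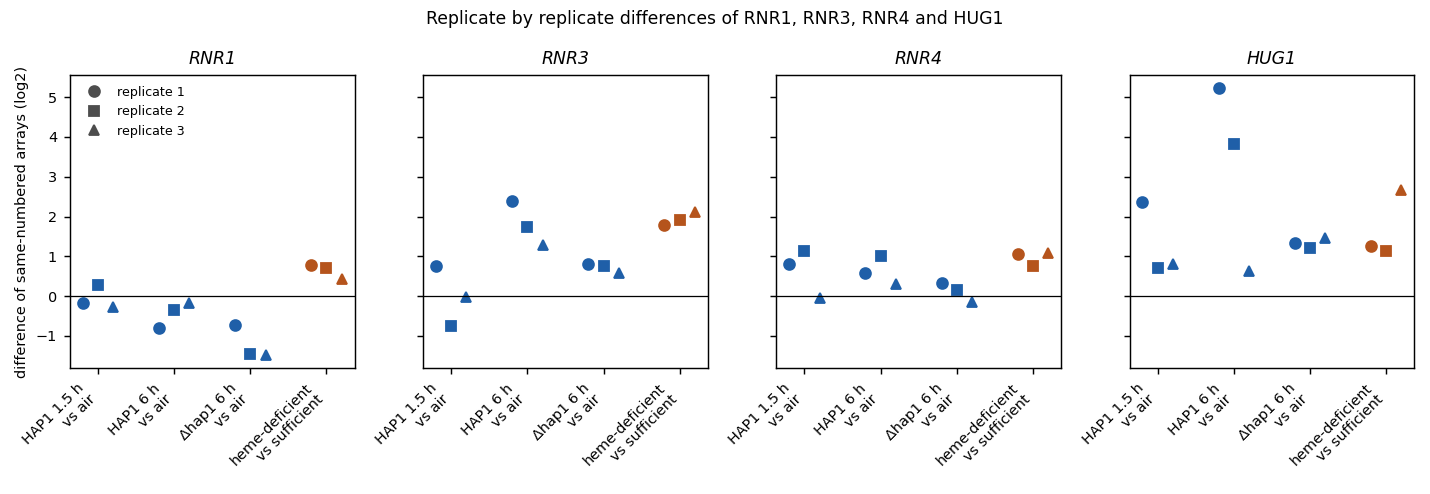
Difference between same-numbered arrays (vertical axis, log2) for 3 *RNR* genes and *HUG1* in 4 comparisons (horizontal axis). Symbols give the replicate. *RNR3* is above 0 in every pair at 6 h and on heme deficiency (0.57 to 2.40), while *HUG1* in *HAP1* cells at 6 h spreads from 0.63 to 5.23.

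The inhibitor gene *SML1* passed no test. Its means over the L51 conditions ran from 13.76 ± 0.24 (SD, n = 3) at 1.5 h to 14.03 ± 0.04 in *Δhap1* cells at 6 h, with 12.41 ± 0.08 in heme-sufficient and 12.40 ± 0.08 in heme-deficient cells. The intervals of its change were -0.31 to 0.41 for 6 h in *HAP1* cells and -0.34 to 0.32 for heme deficiency, so that changes beyond these sizes lie outside them. It is also among the brightest genes, 0.73 to 1.44 below the top gene of each L51 array.

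*DUN1*, which encodes the kinase that marks Sml1 and Dif1 for removal and inactivates Rfx1, was at 11.68, 11.33 and 11.04 in *HAP1* cells in air and at 11.26, 10.78 and 10.50 at 6 h. Same-numbered arrays differed by -0.42, -0.55 and -0.53, and the groups overlapped (difference -0.50, SE 0.21, adjusted p = 0.25). In *Δhap1* cells it was at 11.55, 11.47 and 11.02 in air and 10.82, 10.84 and 10.93 at 6 h, without overlap (difference -0.48, SE 0.21, adjusted p = 0.14). In the heme strain it stayed between 6.51 and 6.78 on all 6 arrays.

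*RFX1* was the dimmest of the 7, with 13 of 18 L51 arrays above background and every MHY100 array under the 25th percentile of its genes. Its aerobic values in *HAP1* cells alone were 8.76, 9.59 and 8.10, and no comparison passed. The largest difference was -0.68 (SE 0.29, adjusted p = 0.12) from 1.5 h to 6 h in *HAP1* cells.

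The comparisons with *HAP1* cells in air share the same 3 arrays. Counted over the 7 genes, 1 was called at 6 h in *HAP1* cells, *RNR3*, where 2.15% of all 5449 genes were called. Groups without overlap were found for *RNR2*, *RNR3* and *RNR4*, all higher, against 11.7% of all genes. From 1.5 h to 6 h 1 was called against 15.3% of genes. In *Δhap1* cells at 6 h against air 1 was called, *RNR1*, against 10.9%, and 5 had groups apart (*RNR2*, *RNR3* and *SML1* higher, *RNR1* and *DUN1* lower) against 20.8%. On heme deficiency 2 were called, *RNR3* and *RNR4*, against 1.64%, and 3 had groups apart (*RNR1*, *RNR3* and *RNR4*, all higher) against 24.6%. None of the 7 was called at 1.5 h (0.0367% of all genes), with cobalt (0.147%), in *Δhap1* cells against *HAP1* cells in air (0.0184%) or in *Δhap1* against *HAP1* cells at 6 h (0.0184%). At an unadjusted p under 0.05 these limma fits held 1, 0, 0 and 1 of the 7, and 15.7%, 10.2%, 1.39% and 1.52% of all genes. In air *RNR2* and *RNR4* were apart between *Δhap1* and *HAP1* cells, both higher, against 3.41% of all genes. Cobalt moved none of the 4 *RNR* genes by more than 0.23 on average, with intervals from -0.83 to 0.68.

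Other genes of the enzyme's control were read from lists. Of 5 that hold, import or bind the subunits, *HUG1* was called at 6 h. Hug1 is a small inhibitor of the enzyme that Rfx1 represses together with *RNR2*, *RNR3* and *RNR4*. In *HAP1* cells *HUG1* was at 7.52, 7.03 and 7.40 in air, below background on every array, and at 12.75, 10.83 and 8.03 at 6 h, where replicate 3 was still below background. The 6 h mean lay 4.37-fold above the mean background of the aerobic arrays, with 2 of its 3 arrays above background. This value leaves out the spread of the arrays and is no lower limit. The fitted difference was 3.22 (SE 0.67, adjusted p = 0.028), with an adjusted p of 0.93 without replicate 1, 0.17 without replicate 2 and 0.13 without the replicate block. Without the 3 doubted arrays it was 4.44 (adjusted p = 1.2e-04), which is no independent support, since replicate 3 at 6 h was doubted for its *HUG1* value. With the hybridization round as the block the difference was 3.08 (adjusted p = 0.26). *Δhap1* cells gave *HUG1* values of 9.07, 7.98 and 8.21 in air and 10.40, 9.20 and 9.67 at 6 h, without overlap (difference 1.34, SE 0.67, adjusted p = 0.19).

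On heme deficiency *HUG1* went from 5.51, 5.58 and 5.34 to 6.78, 6.73 and 8.01. Every heme-sufficient array was under the 25th percentile of its genes. The heme-deficient mean lay 2.54-fold above the mean of that percentile, which leaves out the spread of the arrays and is no lower limit. The fitted difference was 1.69 (SE 0.33, adjusted p = 0.051), and over 15 alternatives the adjusted p ran from 0.0064 to 0.23. The same list had *WTM2*, a relative of the nuclear anchor *WTM1* of the small subunit, at 0.93 (SE 0.19, adjusted p = 0.064) and *DIF1*, the importer of the small subunit, at 0.74 (SE 0.19, adjusted p = 0.13). At 6 h in *HAP1* cells *WTM1* differed by 0.74 (SE 0.21, adjusted p = 0.093), *WTM2* by 0.94 (SE 0.30, adjusted p = 0.13) and *DIF1* by 0.49 (SE 0.42, adjusted p = 0.59). The median of these 5 genes was 0.74 in both comparisons, against -0.10 for all genes at 6 h and -0.06 on heme deficiency, and 3 of the 5 had an unadjusted p under 0.05 in each, as had 17.1% and 18.7% of all genes.

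**Figure D4:**
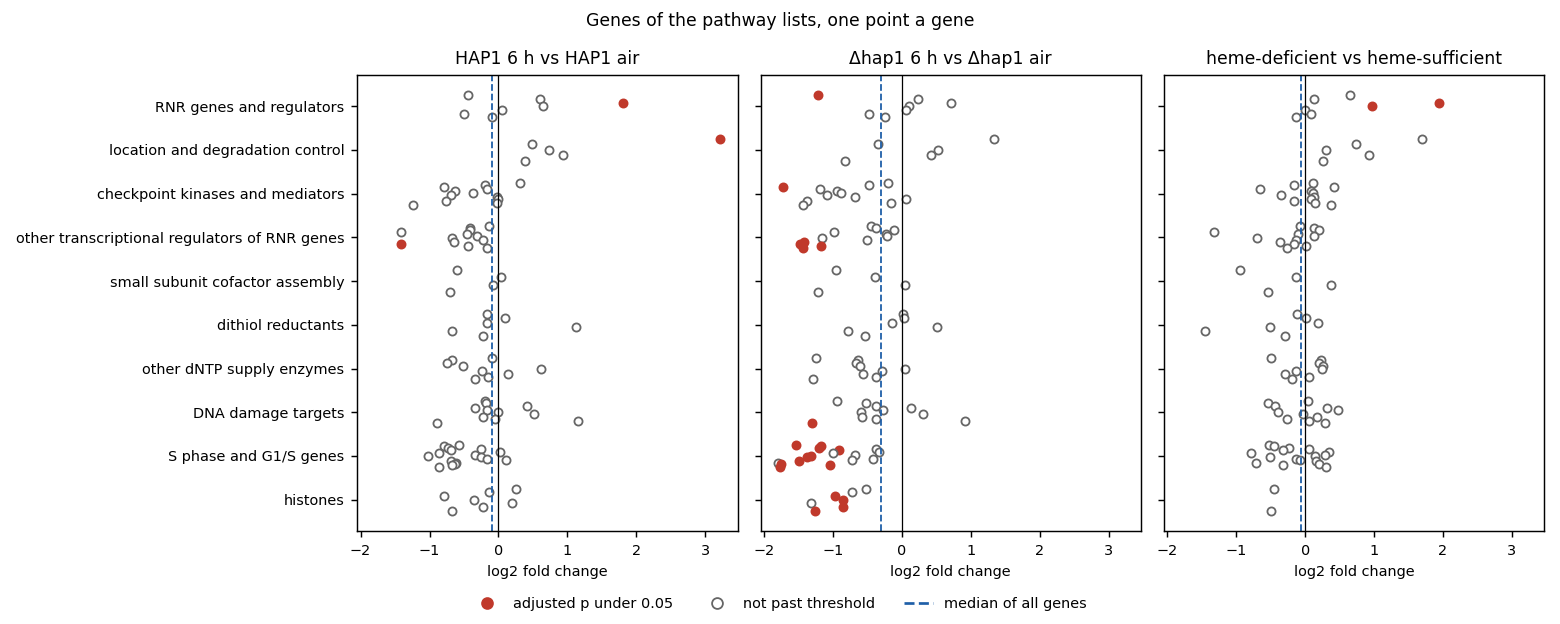
Log2 fold change (horizontal axis) of every gene in 10 lists (vertical axis) in 3 comparisons. Filled points passed an adjusted p of 0.05 and the dashed line is the median of all genes. *HUG1* (3.22) is the farthest point to the right in *HAP1* cells at 6 h, and 10 of 17 S phase and G1/S genes are filled in *Δhap1* cells at 6 h, all lower.

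The damage and replication checkpoint acts upstream of Dun1. Of 13 checkpoint kinases and mediators none was called in *HAP1* cells at 6 h against air (limma, 1 at an unadjusted p under 0.05) or on heme deficiency (2), where 2.15% and 1.64% of all genes were called, so that a count of 0 is near that background. The unadjusted p (limma) was under 0.05 for 17.1% and 18.7% of all genes, here and for the damage targets below. From 1.5 h to 6 h in *HAP1* cells 3 of the 13 were lower (*RAD53*, *ASF1* and *TOF1*), against 11.7% of all genes. *RAD53*, the kinase that activates Dun1, had a log2 change of -1.73 in *Δhap1* cells at 6 h (SE 0.37, adjusted p = 0.017), with 1 of its 3 anaerobic arrays above background and an adjusted p of 0.18 without the replicate block, 0.2 without replicate 1 and 0.14 without replicate 3. From 1.5 h to 6 h in *HAP1* cells its log2 change was -1.31 (SE 0.37, adjusted p = 0.034), with 1 of 3 arrays above background at 6 h, and 6 of 13 alternatives kept the call (adjusted p up to 0.47). *MEC1*, the sensor kinase, differed by 0.32 (SE 0.33, adjusted p = 0.66) and by -0.20 (SE 0.33, adjusted p = 0.7) in *HAP1* and *Δhap1* cells at 6 h. Of 11 measured damage targets of 13 listed, other than the *RNR* genes, none was called in *HAP1* cells at 6 h (limma, 3 at an unadjusted p under 0.05) or on heme deficiency (0), with medians of -0.17 and 0.04, again near the background of 2.15% and 1.64%. From 1.5 h to 6 h in *HAP1* cells 1 was higher (*UBI4*, 0.89, adjusted p = 0.048) and 2 were lower (*MSH6*, -1.52, adjusted p = 0.02, and *RAD23*, -0.95, adjusted p = 0.043). Of all genes 3.56% were called higher and 11.7% lower there. In *Δhap1* cells at 6 h *MSH6* was lower (-1.31, adjusted p = 0.028), where 8.64% of all genes were called lower.

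Among 12 other transcriptional regulators of *RNR* genes, 6 fell from 1.5 h to 6 h in *HAP1* cells and none rose, where 11.7% of all genes fell. *ROX1*, the repressor of hypoxic genes, had a fitted log2 change of -2.47 (SE 0.78, adjusted p = 0.048), with same-numbered differences of -4.45, -3.49 and 0.53. *NRM1*, a corepressor of the G1/S factor MBF, fell by 1.33 (SE 0.27, adjusted p = 0.018) and *IXR1*, a factor that *RNR1* expression depends on, fell by 1.19 (SE 0.29, adjusted p = 0.026). *CRT10*, a regulator of *RNR* gene transcription, fell by 0.96 (SE 0.30, adjusted p = 0.048). Without the replicate block, without replicate 1 or without replicate 2 none of the 12 was called. In these settings 0 of all genes were called, against 832 in the main fit, so they say nothing about the list. With quantile scaling or median centring 2 of the 12 were called, where 525 and 663 of all genes were. With the hybridization round as the block 1 was, where 168 of all genes were. The median of all genes had moved by -0.23 before rescaling. At 6 h against air the log2 change of *NRM1* was -1.42 in *HAP1* cells (adjusted p = 0.023, and 0.87 without replicate 1 and 0.13 without replicate 2) and -1.48 in *Δhap1* cells (adjusted p = 0.01).

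*RNR1* fell in *Δhap1* cells together with genes of DNA replication. Of 17 S phase and G1/S genes 10 fell and none rose in *Δhap1* cells at 6 h, with a median of -1.17 against -0.30 for all genes, of which 8.64% fell. They include the S phase cyclin gene *CLB6* (-1.77, SE 0.30, adjusted p = 0.0084) and the MBF target *TOS4* (-1.76, SE 0.32, adjusted p = 0.01). Also among them were *POL30*, which encodes the sliding clamp of DNA polymerase (-1.20, SE 0.27, adjusted p = 0.02), and the polymerase alpha gene *POL1* (-1.53, SE 0.41, adjusted p = 0.034). *CLB6* was below background on all 3 anaerobic arrays, and its aerobic mean lay 1.6-fold above the mean background of those arrays. *TOS4* and *POL1* were each above background on 1 of 3 anaerobic arrays, so their sizes were read partly at background. Histone genes, whose mRNA also rises in S phase, fell in 4 of 7 cases, among them *HHF1* (-1.26, adjusted p = 0.02). With each array centred on its median gene the calls were 4 of 17 and 1 of 7, and with the hybridization round as the block 0 and 0. Without the replicate block they were 2 and 0. Without replicate 1 they were 0 and 0, and without replicate 3 they were 2 and 1. Over all genes these settings gave, in the same order, 478, 36, 47, 0 and 119 calls. The main fit gave 593, so calls were lost over all genes too. In *HAP1* cells at 6 h none of the 17 was called, where 2.15% of all genes were, so that a count of 0 is near that background. There 7 of the 17 had an unadjusted p under 0.05 (limma), as had 17.1% of all genes. Their median was -0.63 against -0.10 for all genes, with *POL30* at -0.73 (SE 0.27, adjusted p = 0.18). In such bulk samples fewer cells in S phase and less mRNA in each cell cannot be told apart.

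Mating genes moved in the same comparison. Of 6 *MATa* markers 5 were lower in *Δhap1* cells at 6 h, against 8.64% of all genes. The count was 0 without replicate 1, 2 without replicate 3, 2 without the replicate block and 2 with the hybridization round as the block. In these settings 0, 119, 47 and 36 of all genes were called, against 593 in the main fit. The count for the *MATa* markers was 4 with quantile scaling, with median centring, with only the groups compared and without replicate 2. With array weights or the variance trend it was 6, and in the remaining settings 5. The summed intensity of the 6 was 24300 to 31300 against 47500 to 58500 in air. For the 4 *MATalpha* markers the sums were 2920 to 4030 and 2610 to 3520, with none called. Their part in the fall of *RNR1* was not tested.

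Genes that serve the enzyme directly were read in the same way. None of 4 genes for assembly of the small subunit cofactor (*DRE2*, *TAH18*, *GRX3* and *GRX4*) was called in *HAP1* cells at 6 h, in *Δhap1* cells at 6 h or on heme deficiency (limma, 0, 2 and 2 at an unadjusted p under 0.05). None of 6 dithiol reductants, the thioredoxin and glutaredoxin genes that return electrons to the large subunit, was called (0, 0 and 1). Of 9 other enzymes of deoxynucleotide supply none was called either (2, 3 and 0), with medians of -0.24 in *HAP1* cells at 6 h and 0.06 on heme deficiency. Since 2.15%, 10.9% and 1.64% of all genes were called in these comparisons, counts of 0 in lists this short are near the background. The unadjusted p (limma) was under 0.05 for 17.1%, 30.6% and 18.7% of all genes. Over these 3 comparisons *GRX2* had the widest difference of these genes, -1.45 (SE 0.39, adjusted p = 0.14) on heme deficiency.

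The profile of each *RNR* gene was set against 5239 other genes as the root mean square difference over the 8 condition means, centred within each set of arrays. Nearest to *RNR1* were *UTR2* (0.12), *STE4* (0.13) and *AAH1* (0.15), where the median gene was at 0.42. Nearest to *RNR3* were *PMT3* at 0.20, *TDA6* at 0.28 and *PMT5* at 0.29 (median gene 0.89). For *RNR2* they were *NUS1* (0.05), *HEM2* (0.05) and *CAX4* (0.06), and for *RNR4* they were *TOS3* (0.06), *HPA3* (0.14) and *DLD3* (0.14), with median genes at 0.35 and 0.43. These values share the same 24 arrays and say how alike the profiles are and nothing else.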

How the data were processed

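The authors converted the images of 24 Affymetrix arrays with GCOS and computed intensity values with RMA, and the linear intensity was deposited in 2 tables, 1 for each array type. The sample notes give no version of either program. No column was left unused.

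All values were put on the log2 scale here. Gene names came from the platform's probe annotation, which may be out of date, with 12 symbols updated. Of 10928 probe sets for L51, 5498 had 1 yeast gene name, 3683 had none, 1 had several and 1746 were for *S. pombe*. On the MHY100 arrays 6504 of 9335 had 1 name, 2503 had none and 328 had several. Where several probe sets named a gene, that of the highest mean stood for it.

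Differences were fitted over all genes in R 4.3.3 with the package limma 3.58.1 and, for it, statmod 1.5.0, two-sided, with Benjamini-Hochberg adjustment and a threshold of 0.05. All 18 L51 arrays were fitted together with the replicate number as a block, because the study sets same-numbered arrays against each other and they were hybridized on the same day. No block entered the heme fit, since the title and the source name of 1 array disagree on its replicate number (1 and 3). The fit was tested on simulated data. No 2 arrays held identical values.

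The 7 genes and the gene lists were chosen with earlier results of these data known. Genes that could be named were the 7, up to 4 called genes of a list in a comparison by size, the partners *HUG1*, *DIF1*, *CRT10*, *ROX1*, *IXR1*, *RAD53* and *MEC1*, the label checks and the 3 nearest profiles of each *RNR* gene. Genes named beyond these were chosen after their values were seen. The alternatives were the block, the arrays fitted, quantile and median scaling, an offset of 50, a filter on dim probe sets, the mean of probe sets, array weights, a variance trend and leaving out replicates. The hybridization round as a block and the fit without 3 doubted arrays were added after seeing the data.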

Additional observations from a re-analysis of the deposited data

How the results depend on the processing

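Calls over all genes moved widely, so a call or its loss depends on the setting. Without the replicate block the calls at 1.5 h, at 6 h in *HAP1* cells, from 1.5 h to 6 h, with cobalt and in *Δhap1* cells at 6 h were 0, 9, 0, 0 and 47, against 2, 117, 832, 8 and 593, and with only the groups compared 0, 0, 0, 0 and 1030, with 3 in *Δhap1* against *HAP1* cells in air (1 before). Quantile scaling gave 9, 525 and 3 calls at 1.5 h, from 1.5 h to 6 h and with cobalt, median centring 8 at 1.5 h and 5 with cobalt, and the variance trend 5 with cobalt. Array weights, taken gene by gene because the likelihood estimate stopped before it converged, gave 1934, 2193, 2800, 42 and 2278, then 76 and 8 in *Δhap1* against *HAP1* cells in air and at 6 h (1 each before), 51 for the interaction (0 before) and 168 on heme deficiency (93 before). Without the 3 doubted arrays the calls were 462 at 1.5 h, 388 at 6 h, 1451 from 1.5 h to 6 h, 4 with cobalt, 8 and 2 in *Δhap1* against *HAP1* cells, and 6 for the interaction. With the hybridization round as the block they were 0, 0, 168, 0 and 36, and 981 on heme deficiency over the 5 arrays of known round. There the replicate block gave 408 and an offset of 50 gave 50. Leaving out 1 replicate gave 0 to 343 calls at 1.5 h, 0 to 316 at 6 h, 0 to 1410 from 1.5 h to 6 h, 0 to 4 with cobalt, 0 to 3 and 0 to 2 in *Δhap1* against *HAP1* cells in air and at 6 h, 0 to 746 in *Δhap1* cells at 6 h and 18 to 132 on heme deficiency.

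Of the 7 genes' values under these alternatives, 855 kept their side of the threshold, 17 lost a call, 16 gained one and 0 calls changed sign. Array weights accounted for 12 of the gains, among them *RNR1* at 6 h in *HAP1* cells (-0.67, adjusted p = 0.0013) and the *RNR3* interaction (-1.33, adjusted p = 0.027). *RNR2* passed at 6 h in *HAP1* cells with the variance trend (adjusted p = 0.022), and *RNR1* on heme deficiency with the round as the block (0.77, adjusted p = 0.023). Without the replicate block *RNR3* lost its calls at 6 h against air (adjusted p = 0.065) and against 1.5 h (adjusted p = 0.056), and the replicate block on the heme arrays kept both calls there. Same-numbered L51 arrays had deviations from their group means that correlated at 0.56, 0.71 and 0.25 in the median pair of replicates 1, 2 and 3, but the lowest pairs were at -0.09, -0.38 and -0.44, so the numbers do not pair every array. The causes were not tested.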

Other observations

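The regulators of iron use were not described above. From 1.5 h to 6 h in *HAP1* cells *AFT1*, the main activator of iron uptake genes, had a log2 change of -1.53 (SE 0.36, adjusted p = 0.023), and *TIS11*, whose product degrades mRNAs of iron-using proteins when iron is scarce, rose by 1.38 (SE 0.41, adjusted p = 0.04). Of all genes 11.7% were called lower and 3.56% higher there. *AFT1* kept its call in 7 of 14 alternatives (adjusted p up to 0.47) and *TIS11* in 9 of 14 (up to 0.48). At 1.5 h *TIS11* was above background on 2 of 3 arrays. In *Δhap1* cells at 6 h *CTH1*, a relative of *TIS11*, was lower than in air by 1.15 (SE 0.26, adjusted p = 0.02), where 8.64% of all genes were called lower. It kept its call in 10 of 14 alternatives (adjusted p up to 0.23). On heme deficiency none of the 4 iron regulators was called (limma, 0 at an unadjusted p under 0.05, as against 18.7% of all genes), with differences from -0.18 to 0.21.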
